A study of Homo sapiens with 3 samples.

Results

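The regions described here are those listed at 7 genes of the actin cytoskeleton, ACTB, ACTG1, FLNA, PLEC, ACTN4, MYH9 and TLN1, in a ChIP-seq study of DU145 cells, an established line from a brain metastasis of prostate cancer. ChIP-seq sequences the DNA that comes down with an antibody against a chromatin protein. Of 17232 regions in 3 lists, 43 touched one of these loci on hg19, extended by 5 kb on each side. They were 4 of the 536 regions of ZMYND11 (also named BS69) in parental cells with ETS1 intact, 37 of the 15676 regions of ZMYND11 in cells with an ETS1 knockout, and 2 of the 1020 regions of ETS2 in cells with the same knockout. Each list came from 1 library, no replicate or input was analysed here, and whether the knockout cells were 1 clone or a pool is not given in the sources used here. The 7 genes were chosen with their entries in these lists known, so the presence of regions and their places are descriptions, with no test. The lists hold no expression values, so DU145 was not checked against marker genes.

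As background, beta-actin (ACTB) and gamma-actin (ACTG1) are the monomers from which non-muscle actin filaments polymerise. Filamin A (FLNA) and alpha-actinin-4 (ACTN4) crosslink these filaments, non-muscle myosin IIA (MYH9) pulls on them, talin-1 (TLN1) couples them to integrins at the membrane, and plectin (PLEC) links them to intermediate filaments. Together they carry the contraction and adhesion by which epithelial tumour cells move. ZMYND11 is a co-repressor that reads a histone mark laid down along the bodies of transcribed genes, on the histone variant H3.3. ETS1 and ETS2 belong to a family of transcription factors that bind DNA around a GGAA core, and both respond to Ras signalling.

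The promoters of 3 of the genes are shown because a listed region lay within 1 kb of their start. They are the 250 bases before the start in RefSeq's annotation of GRCh38.p14, read in the direction of transcription, with capitals on any match, on either strand, to 3 searched motifs. The motif GGAAG holds the ETS core. TGANTCA is a loose form of the AP-1 motif that takes any base at its centre, and the match in ACTN4 reads TGAATCA. Serum response factor, a known regulator of actin genes, binds the CArG box. No overlap between matches occurred in these 3 sequences.
ACTG1, chr17:81512800-81513049, minus strand: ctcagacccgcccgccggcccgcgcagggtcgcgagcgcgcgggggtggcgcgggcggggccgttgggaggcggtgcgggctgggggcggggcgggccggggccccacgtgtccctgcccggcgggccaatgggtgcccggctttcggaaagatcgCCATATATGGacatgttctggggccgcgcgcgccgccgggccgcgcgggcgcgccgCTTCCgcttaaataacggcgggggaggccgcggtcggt
ACTN4, chr19:38647399-38647648, plus strand: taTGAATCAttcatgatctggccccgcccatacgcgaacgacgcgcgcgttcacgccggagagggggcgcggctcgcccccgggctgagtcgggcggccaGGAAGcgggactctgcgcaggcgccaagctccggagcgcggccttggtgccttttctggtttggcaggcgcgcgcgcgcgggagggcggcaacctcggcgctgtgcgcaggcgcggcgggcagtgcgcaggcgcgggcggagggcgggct
TLN1, chr9:35732196-35732445, minus strand: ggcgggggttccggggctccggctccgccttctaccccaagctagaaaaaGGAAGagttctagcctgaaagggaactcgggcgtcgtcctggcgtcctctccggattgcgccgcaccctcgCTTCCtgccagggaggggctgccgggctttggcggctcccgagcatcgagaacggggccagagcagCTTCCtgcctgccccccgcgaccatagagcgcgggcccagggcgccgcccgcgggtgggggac
All other coordinates in the text are on hg19 and must not be set against these. The locus in RefSeq is longer than the hg19 locus by 189 bp for TLN1 and by 1059 bp for ACTN4, and shorter by 67 bp for ACTG1, so the annotated starts may not be the same base.

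Promoters of 5 of the genes were in the table, and those of ACTB and PLEC were not. For each gene 1 promoter was searched, the one with the outermost start. The shares in brackets are of 35116 promoters, searched over the same 250 bases, with every promoter of a gene counted. GGAAG was found in 4 of the 5 genes (65.1%), TGANTCA in 1 (6.57%) and a CArG box in 2, ACTG1 and FLNA (1.16%). In both of these the CArG box began 94 bases before the start. TLN1 held 3 copies of GGAAG, MYH9 2, and ACTG1 and ACTN4 1 each. A match to these letters is a description and not a bound site, and at FLNA and MYH9 no list had a region within 1 kb of the start.

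The ZMYND11 list of parental cells named 4 of the 7 genes, with 1 region at each. All 4 stood near the top of the list. What the order of the 3 lists ranks is not given in the sources used here. A place is therefore a position in the list and is not read as strength of binding. The first place of that list belongs to another locus, and ACTB and ACTG1 held the next places, 2 and 3. ACTB was listed at chr7:5567950-5568449, inside the gene, with the midpoint 2.03 kb from the start of a gene of 3454 bp. ACTG1 was listed at chr17:79478772-79479271, which began 621 bp after the gene start. PLEC followed at place 5 with chr8:145011631-145012124 and FLNA at place 17 with chrX:153586254-153586719.

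These 4 parental regions all lay within the transcribed locus, and none covered a gene start or a gene end. By the zones used here (within 1 kb of the start, within 1 kb of the end, the body between them, and the flanks outside), 3 were in the body and the ACTG1 region near the start. Their midpoints lay at 58.9% of the gene length from the start for ACTB, 30.1% for ACTG1, 63.3% for FLNA and 63.4% for PLEC. ACTN4, MYH9 and TLN1 had no parental region in the window, and none of the 3 gained one with flanks of 10 kb. For scale, 0.971% of consecutive windows of 55.5 kb, the mean window of the 7 loci, held a parental region, 13.4% a knockout ZMYND11 region and 1.53% an ETS2 region. These windows include stretches without genes, and since the genes were picked from the lists, nothing is read from 4 of 7 genes against that share.

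**Figure D1:**
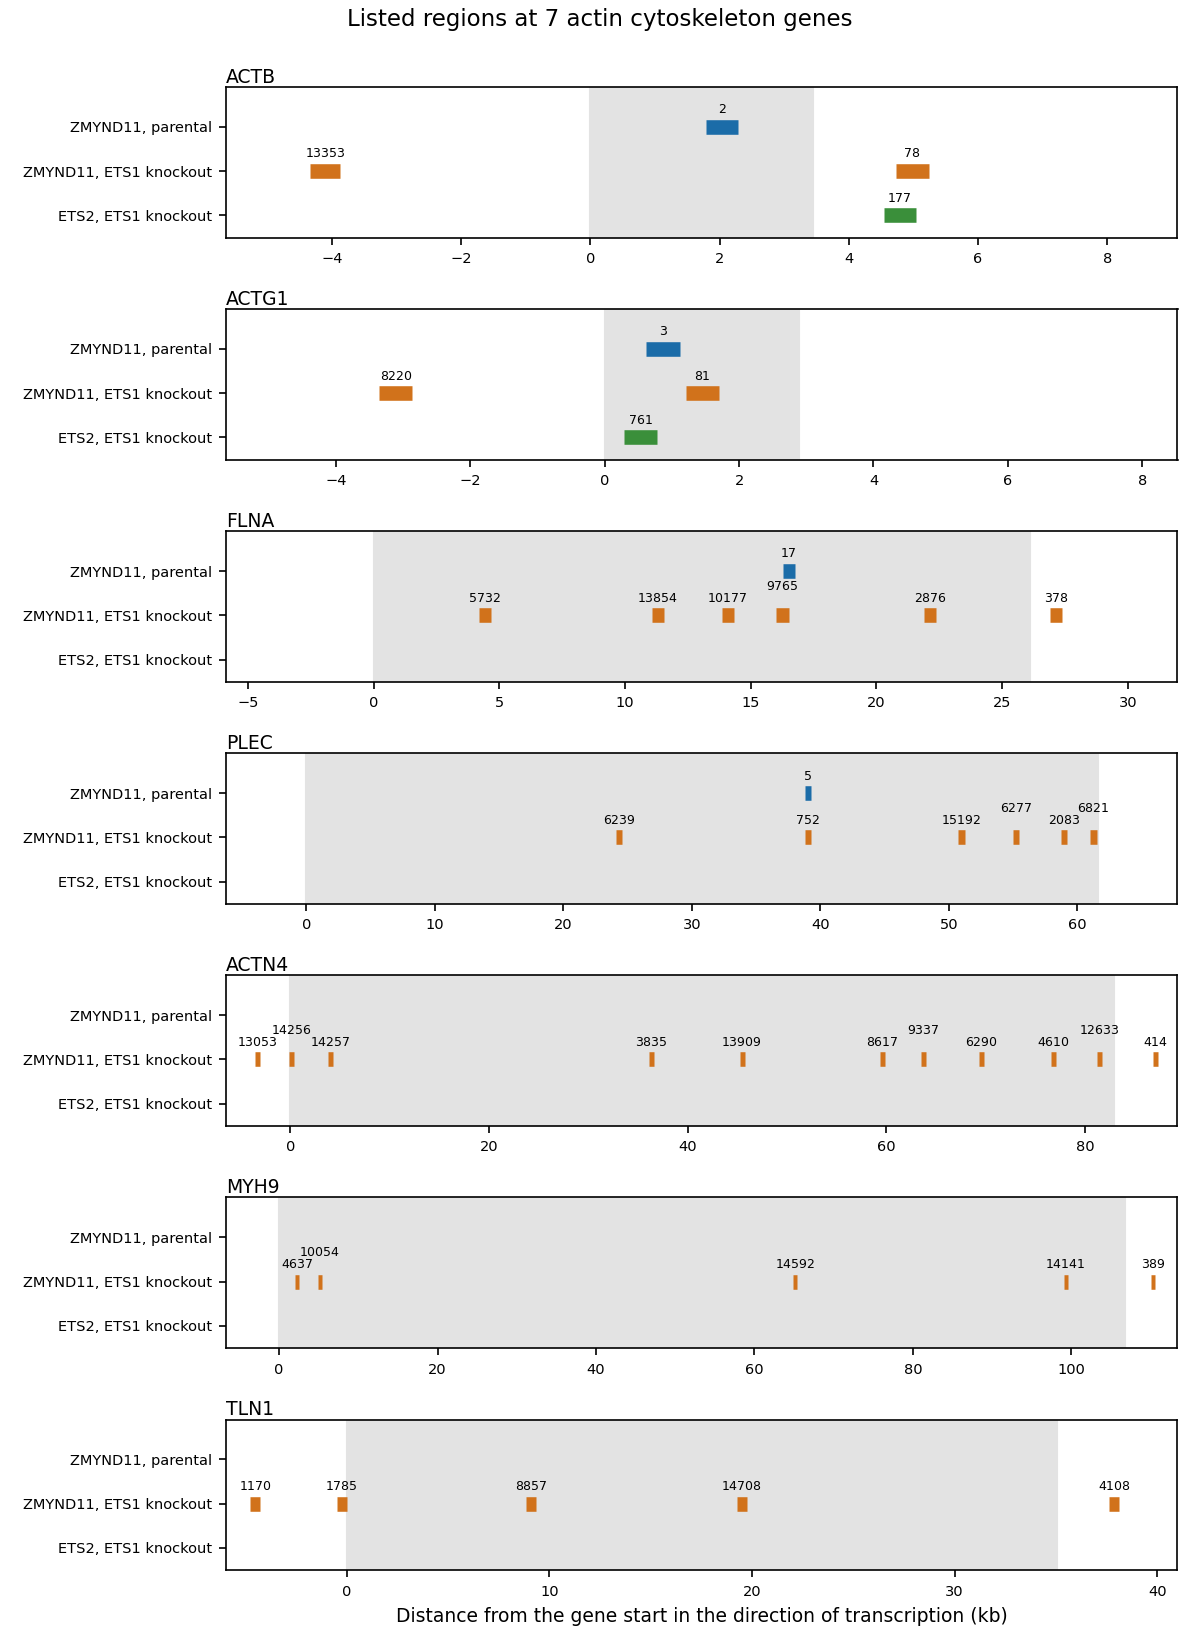
Each panel is 1 gene, drawn from its start in the direction of transcription (x axis, kb from the gene start; shaded, the gene on hg19), with a row for each list; bars are listed regions to scale and the number above each is its place in the list. Parental ZMYND11 regions lay inside 4 of the genes, knockout ZMYND11 regions at all 7, and ETS2 regions at ACTB and ACTG1.

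The ZMYND11 list of ETS1-knockout cells had regions at all 7 genes. ACTB and ACTG1 had 2 each, MYH9 and TLN1 5 each, FLNA and PLEC 6 each and ACTN4 11. Of the 37 regions, 25 were in gene bodies, 2 near a start, 2 near an end, 4 in the flank before a start and 4 in the flank after an end. Their median place was 6821 of 15676, so that the loci were not early in this list as a whole.

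The order of this list differed between its beginning and its later parts. Below its beginning, stretches of the list ran through the chromosomes in one fixed order with increasing coordinates. Split into 10 equal parts, the list had runs with a median length, over the regions in them, of 3 in the first part. The median was 73 in the eighth part and 24 in the last. In the parental and ETS2 lists the medians in such parts did not pass 7. Members of the 7 loci sat in runs of 1 to 99 regions, at most 0.632% of the list, and those before place 536 in runs of no more than 4. Places within 1 run are therefore not read as an order. The ACTN4 regions at places 14256 and 14257, for example, were neighbours in 1 run of 91.

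At ACTB the earliest knockout ZMYND11 region did not lie in the gene. It was chr7:5564997-5565498 at place 78, from 1281 to 1782 bp past the gene end, and 2452 bp away from the parental region in the gene body. The other knockout region, chr7:5574099-5574570 at place 13353, lay before the gene start with its midpoint at -4.10 kb. No knockout region was listed within ACTB itself, where the parental list had its second entry. RefSeq names LOC221946, a non-coding RNA, within 5 kb of ACTB on the side of the gene end, and the region past the end was not assigned to either.

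ACTG1, which encodes the other cytoplasmic actin, had a knockout region in its body at place 81, chr17:79478186-79478683. It ended 89 bp short of the parental region, with midpoints 587 bp apart, so the entries adjoined without sharing a base. The remaining knockout region, chr17:79482751-79483251 at place 8220, lay before the gene start on the side of the neighbouring gene FSCN2. The earliest knockout places of the actin genes were thus 78 and 81 of 15676, or 0.498% and 0.517% of the list. Their parental places were 2 and 3 of 536, or 0.373% and 0.560%. At neither gene did the ZMYND11 regions of both cell types overlap. RefSeq names 14 pseudogenes of ACTB and 21 of ACTG1, against 2 of ACTN4 and 0 of the other 4 genes. Reads from such near copies can align to more than 1 place, how the authors treated them is not given in the sources used here, and their part in the actin entries was not tested.

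FLNA, the filament crosslinker, had 5 knockout regions along its body and 1 past its end. The one past the end, chrX:153575608-153576094, began 798 bp after the gene and stood earliest, at place 378. Those in the body, from the start of the gene onward, were chrX:153598321-153598817 (place 5732), 153591453-153591925 (place 13854), 153588665-153589158 (place 10177), 153586496-153586995 (place 9765) and 153580639-153581134 (place 2876). Only the one at place 9765 met the parental region, over 223 bp. Under a reciprocal overlap of 50% this pair no longer counted as shared.

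PLEC was the gene where parental and knockout ZMYND11 coincided most closely. The parental region at place 5 shared 492 bp with the knockout region chr8:145011625-145012123 at place 752, and the midpoints were 3.5 bp apart. This was also the earliest PLEC entry of the knockout list. Of the other 5 knockout regions, 4 lay in the last 20% of the gene length: chr8:144999672-145000156 (place 15192), 144995437-144995929 (place 6277), 144991677-144992173 (place 2083) and 144989395-144989886 (place 6821), which ended 74 bp before the gene end. The remaining one was chr8:145026295-145026796 (place 6239). No list had a region within 1 kb of the PLEC start used here. PLEC is known for several alternative first exons, which were not analysed here.

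ACTN4 had the most knockout regions, 11, and none in the other lists. One covered its start, chr19:39138194-39138691, from 95 bp before it, at place 14256. The next, chr19:39142078-39142575, had its midpoint 4.04 kb into the gene. The other 7 inside the gene ran from 36.4 to 81.5 kb, with places from 3835 to 13909. They began at 39174404, 39183531, 39197657, 39201773, 39207628, 39214900 and 39219524. Outside the gene, chr19:39134748-39135243 lay before the start at place 13053. The entry past the end, chr19:39225104-39225599, was by far the earliest of the 11, at place 414. It began 3934 bp after the gene end, on the side where RefSeq has CAPN12 overlapping ACTN4 and the non-coding RNA LOC124904711 within 5 kb, and it was not assigned to any of these.

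MYH9, the longest of the genes at 106737 bp, had 5 knockout regions. A pair lay shortly after the start, chr22:36781556-36782046 (place 4637) and 36778639-36779134 (place 10054), with midpoints at 2.26 and 5.18 kb. The next 2 stood late in the list, chr22:36718650-36719135 (place 14592) and 36684506-36684986 (place 14141). The earliest, chr22:36673504-36674002 at place 389, lay past the gene, from 3325 to 3823 bp after its end. The RefSeq table names no other gene within 5 kb on that side.

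TLN1 had 5 knockout regions, and its earliest entries were on the side of its start. The region chr9:35736666-35737163 at place 1170 lay before the start, with its midpoint at -4.52 kb. The region chr9:35732386-35732887 at place 1785 covered the start used here, from 495 bp before it to only 6 bp after it. CREB3, GBA2 and MIR6853 lie within 5 kb on that side in RefSeq, so neither region can be given to TLN1 alone. Inside the gene were chr9:35723036-35723535 (place 8857) and 35712639-35713137 (place 14708). Past the end, chr9:35694253-35694754 was at place 4108 and began 2580 bp after the gene.

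Read across the genes, the earliest knockout ZMYND11 entry lay past the gene end at 4 genes (ACTB, FLNA, MYH9 and ACTN4), inside the gene at 2 (ACTG1 and PLEC) and before the start at 1 (TLN1). These earliest places ran from 78 to 1170, which put 1 region of each gene, and no second one, in the first 10% of the list. Past the gene ends there were 5 regions at 5 genes with a median place of 389. Of these, 4 were among the first 536 of 15676 entries, a cut at the parental list's length chosen after seeing the data. The 27 inside genes had a median place of 8857, and 1 of them, at ACTG1, was among the first 536. The 5 with a midpoint before a start, among them the TLN1 region that covered the start, had a median place of 8220. None of these was so early. This pattern was noticed in the lists, and how often early entries lie past the ends of other genes was not analysed here.

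**Figure D2:**
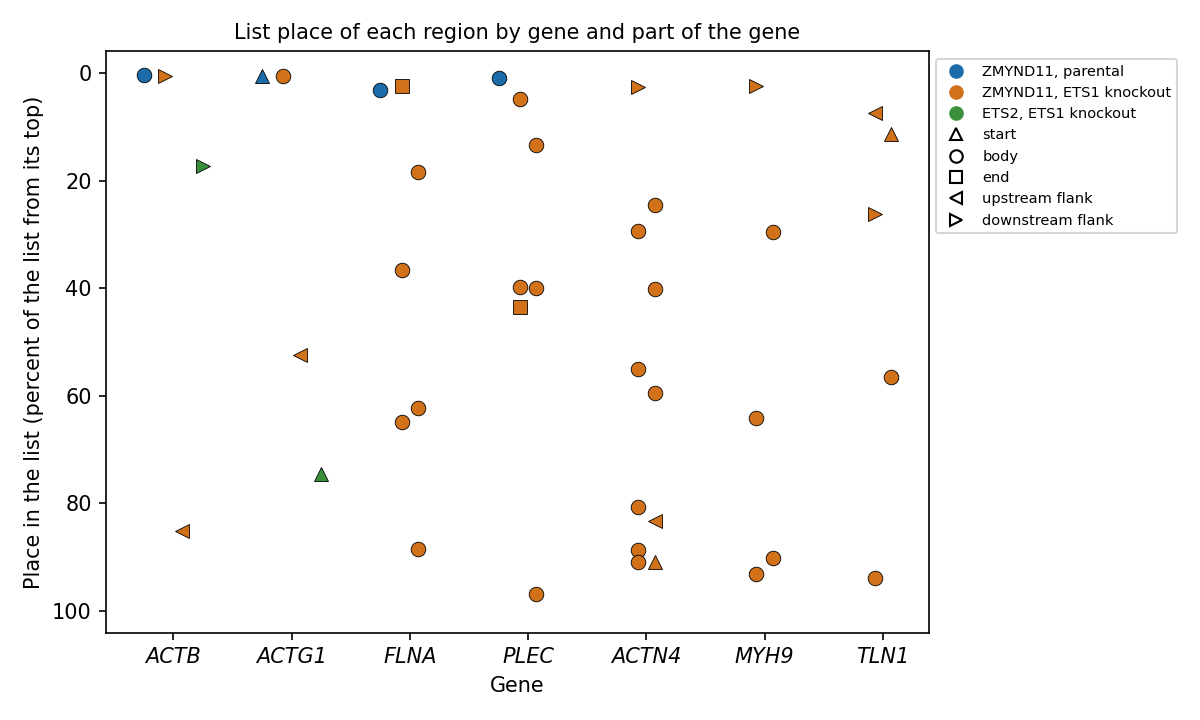
Each point is 1 of the 43 regions, placed by gene (x axis) and by its place as a percent of its list counted from the top (y axis, top of the list uppermost); colour gives the list, shape the part of the gene, and points are shifted sideways for legibility. The 4 parental points lie within the first 3.17% of their list, whereas the knockout ZMYND11 points run from 0.498% to 96.9% with 1 early entry at each gene.

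Along the genes, knockout regions inside the loci were more numerous in the later part. Of the 27 with a midpoint inside a gene, 9 lay before the middle of the gene and 18 after it, and 9 of the 18 were in the last 20% of the gene length. PLEC gave 5 of the 18 and ACTN4 6, while MYH9 had 2 on each side and TLN1 1 on each side. The count thus rests mainly on PLEC and ACTN4. Regions of 1 gene share a locus and a library and are not independent.

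The windows of the 7 genes held 9.52 knockout ZMYND11 regions per 100 kb, against 0.534 per 100 kb over the span of the lists. The values were 1.03 and 0.0182 for parental ZMYND11, and 0.515 and 0.0347 for ETS2. Since the genes were picked with their entries in the lists known, nothing is read from these excesses or from the comparison that follows. A closer comparison for knockout ZMYND11 is the 100 kb on each side of every window. Per 100 kb, FLNA had 16.6 in its window and 2 in the sides, ACTG1 15.5 and 5.5, and ACTB 14.9 and 9. ACTN4 had 11.8 and 4, TLN1 11.1 and 4, and MYH9 4.28 and 1. PLEC had 8.38 and 8, so that its density was hardly above that of its surroundings. All 7 genes were higher in the window than at the sides, as counts of 2 to 11 regions per gene, and the windows of ACTB and ACTG1 rest on 2 regions each.

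**Figure D3:**
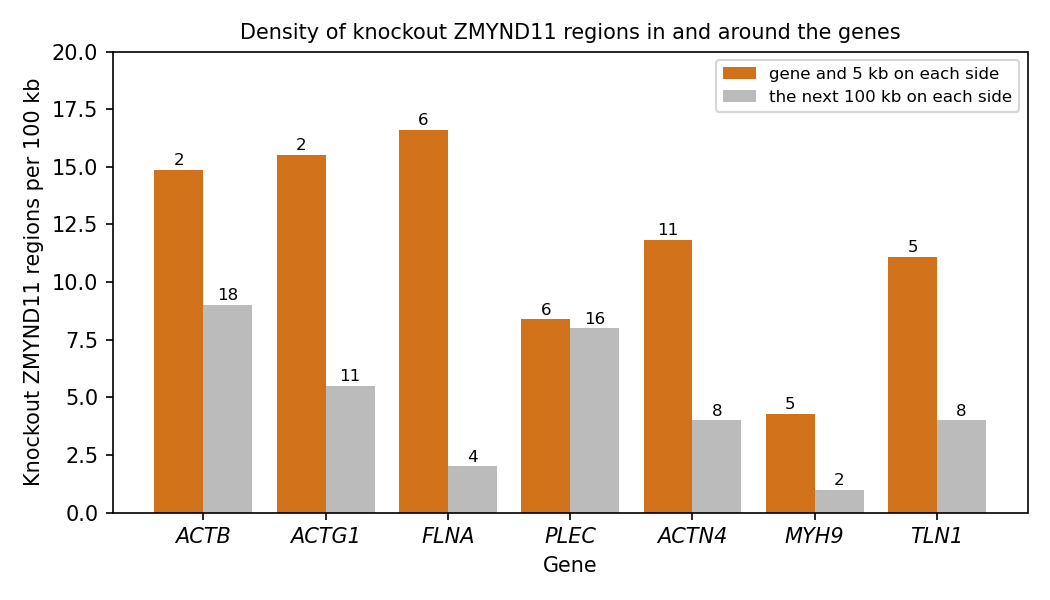
Bars give knockout ZMYND11 regions per 100 kb (y axis, from 0) for each gene (x axis) in the gene with 5 kb on each side and in the next 100 kb on each side, with the number of regions above each bar; there is 1 library, so bars have no error. FLNA shows the widest gap, 16.6 against 2, and PLEC the narrowest, 8.38 against 8. The genes were picked with their entries in the lists known.

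Of the 4 parental regions at these genes, 2 shared at least 1 bp with an entry of the knockout ZMYND11 list, at FLNA and PLEC, where 10.4% of the whole parental list did so. With 4 regions, 1 more or fewer would move the share by a large step. The other 2, at ACTB and ACTG1, were the earliest listed of the 4. Counted from the knockout list, 2 of 37 overlapped a parental region (5.41%, against 0.357% of the whole list). The loci were chosen with their entries in these lists known, and nothing is read from either share.

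With flanks of 5 kb, ETS2 was listed at the actin genes and at none of the other 5. At ACTB its region was chr7:5565192-5565690, place 177 of 1020, past the gene end. It shared 306 bp with the knockout ZMYND11 region at place 78, and the parental ZMYND11 region was 2260 bp away. At ACTG1 it was chr17:79479106-79479606, place 761, from 286 bp after the gene start. It shared 165 bp with the parental ZMYND11 region and lay 423 bp from the knockout ZMYND11 region at place 81. ETS2 in knockout cells thus met knockout ZMYND11 past the end of ACTB, and parental ZMYND11 within ACTG1.

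Counted over the loci, 1 of 2 ETS2 regions met knockout ZMYND11, beside 57.1% of the whole ETS2 list. That count was 2 with midpoints within 1 kb and 0 without flanks. Likewise 1 of 37 knockout ZMYND11 regions overlapped an ETS2 region (2.70%, against 3.71% of that list). Of the parental regions 1 of 4 met an ETS2 region, against 3.36% of all parental regions, and 1 of the 2 ETS2 regions met a parental one, against 1.76%. These counts of 1 bear no comparison. The nearest ETS2 entries to the parental regions of PLEC and FLNA were 30.0 kb and 43.6 kb away. The PLEC one, chr8:144981163-144981658 at place 728, began 7663 bp past the gene end.

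Of the 43 members, 10 lay wholly outside their gene and were members only through the flank of 5 kb. Among them were both knockout ZMYND11 regions at ACTB, the ETS2 region at ACTB and all 5 knockout regions past gene ends. Without flanks the knockout list had 28 members in place of 37, and ETS2 had 1 in place of 2. Just inside it were the TLN1 region at place 1170, 4274 bp from the gene, and the ACTN4 region past the end, 3934 bp away. Just outside were chr19:39132751-39133251 (place 13719), 5038 bp before ACTN4, and chr17:79485115-79485615 (place 2185), 5223 bp before ACTG1. Region widths at the loci were close to those of the lists. Medians were 496, 496 and 499 bp at the loci for parental ZMYND11, knockout ZMYND11 and ETS2, and 493, 496 and 497 bp over the whole lists.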

How the data were processed

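The files deposited by the authors hold the chromosome, start and end of each region of a library and nothing else. Alignment tool and build, per the submitters' processing notes, were Bowtie2 2.0.6 and hg19. How peaks were called, against which control and at what depth is not given in the sources used here, so no precision or detection limit was derived. A longer list can also come from depth, precipitation or threshold. Coordinates are printed as deposited.

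Groups came from sample titles. Loci were those of the rule; all 7 genes and every region within 5 kb are described. Gene strands were entered from general knowledge and matched RefSeq for the 5 genes in its promoter table. Overlap means at least 1 bp. Members and lists were chosen with earlier results of these data known. RefSeq tables on GRCh38.p14 gave promoter sequences, neighbours and pseudogene names only. Exons, introns and other actin cytoskeleton genes, which need an hg19 annotation, were not analysed here. The overlap and position code was tested on simulated data. Python 3.11.15, numpy 2.4.6, pandas 2.3.3 and matplotlib 3.10.9 were used.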

Additional observations from a re-analysis of the deposited data

How the results depend on the processing

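Of 28 alternative values for 11 counts, 18 stayed within 1.5 times the main count and 10 did not. The parental count stayed at 4 without flanks, with flanks of 10 kb and in the first 50% of its list. The knockout count of 37 was 28 without flanks and 43 with flanks of 10 kb, but 19 in the first 50% of the list and 5 with the knockout list taken to the length of the parental list, which was chosen after seeing the data; both use fewer regions by construction. ETS2 went from 2 to 1 without flanks, to 3 with flanks of 10 kb, where PLEC gained a region, and to 1 in the first 50%. Overlaps of parental with knockout ZMYND11 went from 2 to 3 for midpoints within 1 kb and stayed at 2 without flanks. Under reciprocal overlap of 50% they fell to 1 (PLEC), and with the knockout list at parental length to 0. Overlaps of ETS2 with knockout ZMYND11 went from 1 to 2 for midpoints within 1 kb and to 0 without flanks. Knockout regions near an end went from 2 to 1 with zones of 500 bp and to 5 with zones of 2 kb. No paired analysis was possible because each group had 1 library and no result came from a test.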
